A study of Mus musculus with 24 samples.

Results

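The stomach and the cecum of wild-type mice were compared across all genes, using the 3 libraries coded as wild-type stomach and the 3 coded as wild-type cecum, 6 of the 24 libraries in the series. Both groups are labelled WT, without an engineered allele, and the titles of these samples name no treatment. The WT stomach libraries number 3 and so do those of WT cecum, the blind pouch at the start of the large intestine. The other 18 libraries come from cecum and ileum with altered Cdx2 or Apc alleles. They enter here through the shared estimate of spread, the filter on low counts and the scaling of libraries. A gene without reads in the 6 libraries could therefore be tested. The sources used here give neither strain, sex nor age, nor the region of stomach sampled, nor whether replicates were separate animals. P-values therefore measure the spread between these samples, which may be technical. The RNA came from tissue and not from sorted cells, so fewer cells of a type and less RNA per cell cannot be told apart.

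The stomach and the large intestine are built from one endodermal tube and keep their identities through different transcription factors. In the stomach, surface cells secrete mucus and gastrokines, parietal cells pump acid, chief cells store pepsinogen, and endocrine cells release ghrelin, histamine or gastrin. In the mouse, a squamous forestomach adjoins this glandular part. The cecum has absorptive colonocytes with a brush border, goblet cells that secrete a different mucin, and a dense bacterial content. Cdx2 and Cdx1 are homeobox factors that maintain intestinal identity, and Sox2 and Barx1 are factors of the developing stomach.

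Gene-assigned reads ranged over the 6 libraries between 51716082 and 71485860. In WT stomach 23.6 to 28.1% of these fell in the 10 most abundant genes, against 11 to 12.4% in WT cecum. Values are TMM-normalised CPM, read counts scaled to library size, listed for replicates 1, 2 and 3 in that order, and fold changes are log2 values of WT stomach over WT cecum ± SE with n = 3 each. Calls are genes whose p in edgeR's quasi-likelihood test, after Benjamini-Hochberg adjustment over all tested genes, lay below 0.05. Of 20502 genes tested, 8951 were called, which is 43.7%. The calls comprised 4524 higher genes (22.1%) and 4427 lower genes (21.6%), and the median over all tested genes was 0.04. With so many calls, each count below is read against those shares. The lists and their members were chosen with earlier results of these data known, so the counts are descriptive only. Among the lists counted below, the members that did not pass the filter on low counts numbered 13 for mitochondrially encoded genes, 7 for pancreatic acinar genes, 5 for Hox paralogue groups 9 to 13 and 3 for hepatocyte genes. They numbered 2 each for Hox paralogue groups 1 to 5 and squamous genes, and 1 each for gastric endocrine, intestinal endocrine, intestinal factor, Slc26 and mucin glycan genes. One claudin was not matched in the files. Called genes with a log2 change of at least 4 numbered 488 higher and 544 lower. The libraries of the organs did not overlap in 10542 of all tested genes (51.4%), so separate groups were common.

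**Figure D1:**
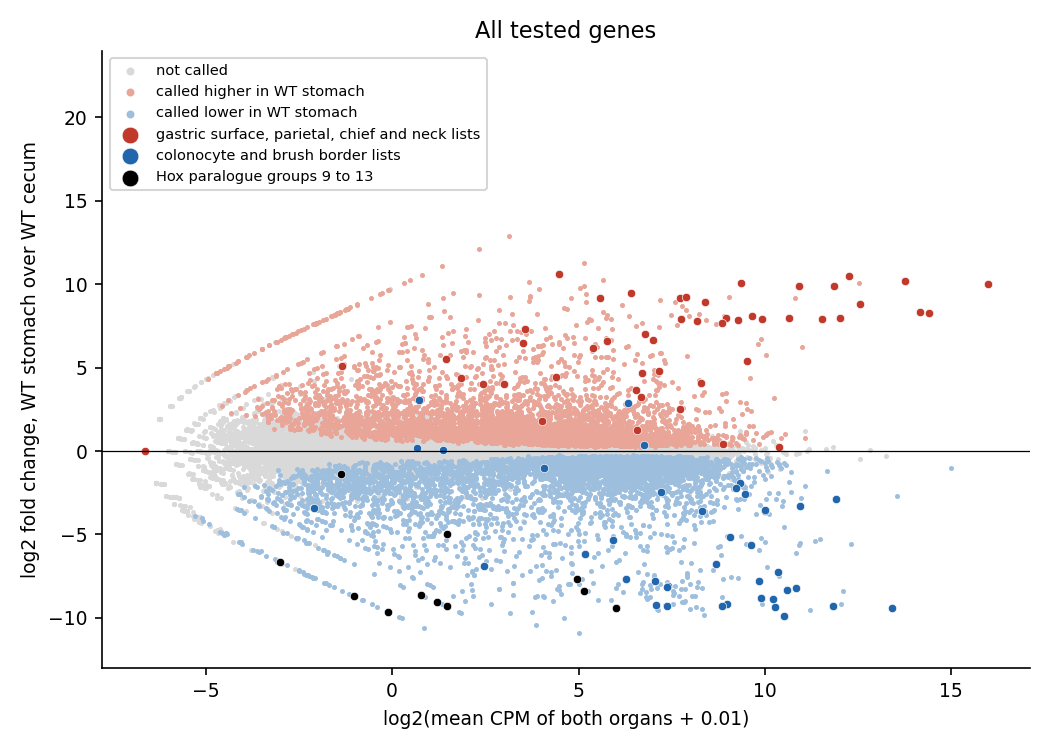
Log2 fold change of WT stomach over WT cecum (vertical axis) against the log2 mean CPM of both organs plus 0.01 (horizontal axis) for the 20502 tested genes. Pale points are genes called higher, called lower or not called, and large points are members of the lists for gastric epithelium (red), colonocytes and brush border (blue) and Hox paralogue groups 9 to 13 (black). The gastric members include the right-most points, where Pgc averaged 128897 CPM in WT stomach, and the diagonal streaks at low levels are genes with almost no read in 1 organ.

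Single libraries stood apart within both organs. WT stomach replicate 3 held the gastrin gene Gast, made by G cells of the gastric antrum, at 0.118, 0.189 and 301 CPM across the WT stomach libraries, against 0, 0.0628 and 0 CPM in WT cecum. It was the only WT stomach library with more than 1 CPM, and Gast did not pass the count filter. The antral transcription factors Nkx6-3 and Pdx1 followed the same library, with 0.394, 1.76 and 56.6 CPM for Nkx6-3 and 1.83, 3.63 and 24.7 CPM for Pdx1 in WT stomach, against 0.212, 0.753 and 0.386 CPM and 2.62, 1.49 and 0.773 CPM in WT cecum. Both were called higher, and without WT stomach replicate 3 neither was called (log2 1.25, edgeR adjusted p = 0.105 for Nkx6-3; log2 0.77, edgeR adjusted p = 0.4 for Pdx1). Pdx1 also missed the threshold without WT cecum replicate 3 (log2 2.30, edgeR adjusted p = 0.0503). These 3 genes were singled out after their values were seen.

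Interferon-induced genes were high in WT stomach replicate 1, and in WT cecum replicates 1 and 2 above replicate 3. Summed over the 18 interferon response genes, the level was 4219.8, 405 and 326 CPM in WT stomach, against 4923, 4764 and 1499 CPM in WT cecum. With all libraries 2 of these genes were called higher and 2 lower, whereas without WT stomach replicate 1 the counts were 0 and 14. The transcription factor Irf7, which amplifies interferon transcription, had 373, 30.1 and 23.2 CPM in WT stomach, against 1411, 1289.9 and 469 CPM in WT cecum. It was called lower (-2.89 ± 0.93, edgeR adjusted p = 0.0165), and the log2 change was -5.30 without WT stomach replicate 1. Without WT stomach replicate 2 or 3 Irf7 was not called (log2 -2.41 and -2.39, edgeR adjusted p = 0.067 and 0.0618). The antiviral GTPase Mx1 was called higher (2.39 ± 0.75), at 181, 26.4 and 18.4 CPM in WT stomach, against 18, 18.2 and 6.79 CPM in WT cecum, and its log2 change without WT stomach replicate 1 was 0.65 (edgeR adjusted p = 0.433). The Mx1 call was also lost without WT cecum replicate 3 (log2 2.05, edgeR adjusted p = 0.0563). The higher count of the list was 1, 1 and 0 without WT cecum replicate 1, 2 or 3, and the lower count was 1 without WT stomach replicate 2 and 1 without replicate 3.

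Gastric transcripts were also measurable in the cecum libraries. Over the 45 called genes of the 3 gastric epithelial lists, the median level in WT cecum was 0.326, 0.781 and 0.109% of the WT stomach mean. Genes of the colonocyte and brush border lists that were called lower, 34 in all, had median levels of 1.06, 0.363 and 0.399% of the WT cecum mean in WT stomach. Whether RNA carried between samples takes part in these levels was not tested. For Pgc, which encodes pepsinogen C, the log2 change was 10.02 with all libraries and 13.85 without WT cecum replicate 2. Values without that library are therefore given beside many of the gastric results, though not for every gene.

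**Figure D2:**
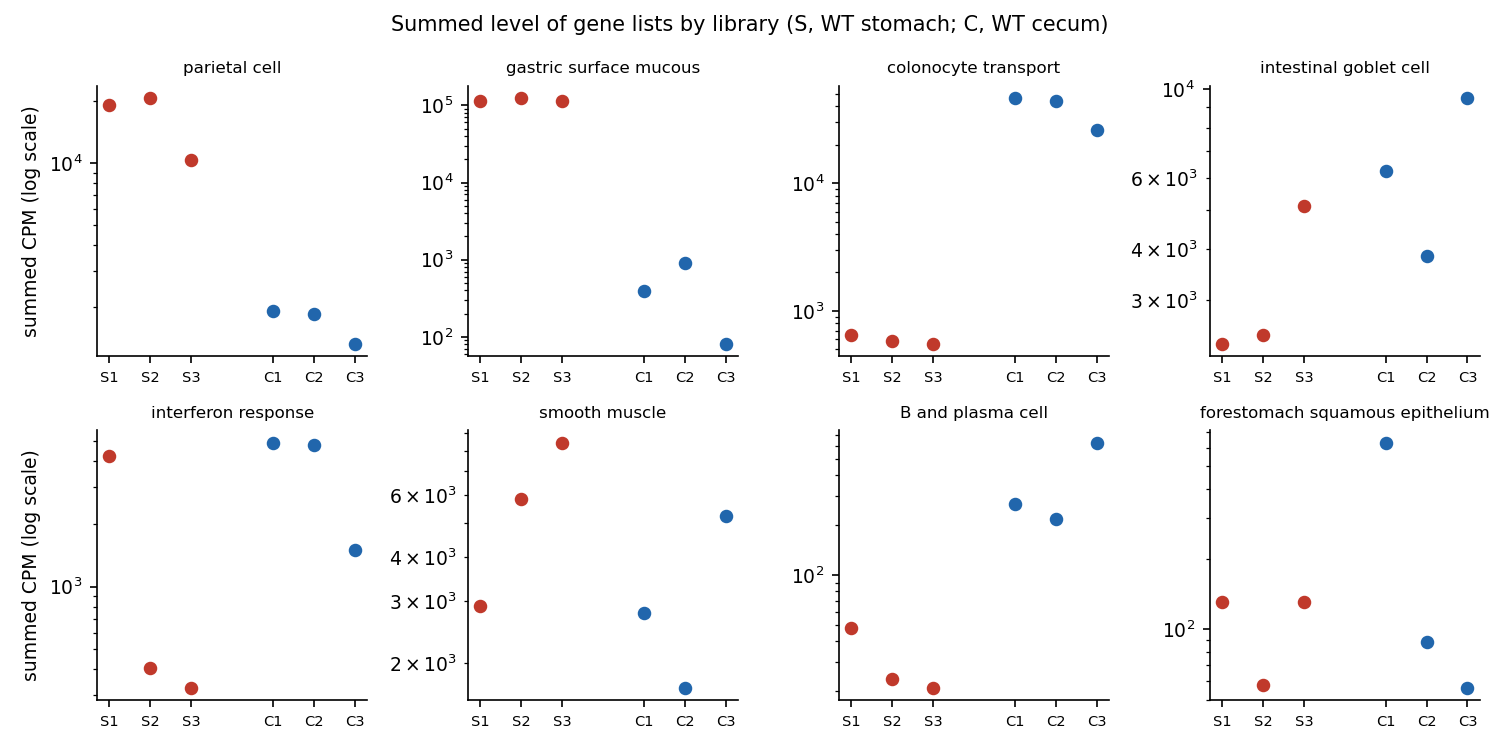
Summed CPM (vertical axes, log scale) of 8 gene lists in each WT stomach library (S1 to S3, red) and each WT cecum library (C1 to C3, blue). Parietal genes are lowest in S3 among the stomach libraries, interferon genes are high in S1, C1 and C2, and the smooth muscle and plasma cell sums are highest in C3 among the cecum libraries.

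Surface mucous cell genes were higher in WT stomach in this comparison: all 18 of the listed genes passed the filter and were called, with a median log2 change of 7.73, or 8.52 without WT cecum replicate 2. Gkn1 and Gkn2 encode gastrokines, secreted proteins of the gastric surface (ENSMUSG00000030050; GRCm38 chromosome 6, 87345650 to 87350942, minus strand for Gkn1). Gkn1 had 43103, 49145 and 38329 CPM in WT stomach, against 114, 305 and 1.56 CPM in WT cecum (8.28 ± 1.5, edgeR adjusted p = 0.000179), and Gkn2 had 35245, 39314 and 34493 CPM in WT stomach, against 86.7, 247 and 1.04 CPM in WT cecum (8.35 ± 1.72). The groups did not overlap in either gene, although WT cecum replicate 3 was far below the other cecum libraries. The aspartic protease Ctse was even across the WT stomach libraries, at 3195, 3153 and 3220.4 CPM in WT stomach, against 10.6, 26.2 and 1.89 CPM in WT cecum (7.95 ± 0.82). The transcription factor Gata5 had 94.1, 82 and 71.1 CPM in WT stomach, against 1.03, 1.95 and 0.431 CPM in WT cecum (6.20 ± 0.36), and Foxq1, another, had 120.3, 94.9 and 110.2 CPM in WT stomach, against 1.11, 1.72 and 0.535 CPM in WT cecum (6.61 ± 0.46). These factors lay in the same range in every WT stomach library. With WT cecum replicate 2 left out, the highest of its group, the log2 changes were 9.56 for Gkn1, 9.70 for Gkn2, 9.01 for Ctse and 6.87 for Gata5.

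Of 18 parietal cell genes tested, 15 were called higher and 0 lower, with a median of 7.63. Atp4a and Atp4b encode the subunits of the gastric proton pump. Atp4a had 8356, 9545 and 4123 CPM in WT stomach, against 0.742, 22.1 and 0.0594 CPM in WT cecum (9.91 ± 1.91, edgeR adjusted p = 0.000327). Atp4b had 4584, 4789.5 and 2293 CPM in WT stomach, against 0.344, 11.8 and 0.0891 CPM in WT cecum (9.90 ± 1.55). The lowest WT stomach library for both was replicate 3, the library with Gast, and the groups were far apart. When WT cecum replicate 2 was left out, the log2 changes were 14.30 for Atp4a and 14.26 for Atp4b, and without WT cecum replicate 3 that of Atp4a was 9.33. Kcne2, a subunit of the channel that recycles the pump's potassium, had 109.6, 119 and 56.8 CPM in WT stomach, against 0.0265, 0.356 and 0.104 CPM in WT cecum (9.16 ± 0.75), or 10.29 without WT cecum replicate 2. Members also used elsewhere were closer: the potassium channel gene Kcnq1 had 155, 166 and 85.1 CPM in WT stomach, against 54.4, 56 and 57.5 CPM in WT cecum (1.28 ± 0.24), and the anion exchanger Slc4a2 (0.43 ± 0.22) and the cytoskeletal linker Ezr (0.25 ± 0.42) did not pass the test. Without WT stomach replicate 3 Slc4a2 was called (log2 0.68, edgeR adjusted p = 0.00857). With all libraries, the water channel gene Aqp4 was the remaining member that was not called.

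Chief and mucous neck cell genes were called higher in 12 of 13 cases, with a median of 5.10. That median was 6.01 without WT cecum replicate 2 and 4.50 without WT stomach replicate 3. The list includes Clps, which is described below with genes best known from the exocrine pancreas. The gene not called, the lipase gene Lipf, had no read in the 6 libraries. Pgc encodes pepsinogen C and was the most abundant gene of the stomach per kilobase of exon, with 92865 CPM per kb against 89.5 CPM per kb in WT cecum. It took 9.06 to 12.03% of the gene reads in WT stomach. Pgc had 130326, 152413 and 103951 CPM in WT stomach, against 16.1, 355 and 1.54 CPM in WT cecum (10.02 ± 1.87, edgeR adjusted p = 0.000239). Gif, which encodes the vitamin B12 carrier intrinsic factor, had 1026, 1432 and 1448 CPM in WT stomach, against 0.132, 3.49 and 0.0149 CPM in WT cecum (10.07 ± 1.78). The chief cell transcription factor Bhlha15 differed less, at 39.7, 36.9 and 43.9 CPM in WT stomach, against 1.46, 1.13 and 2.84 CPM in WT cecum (4.46 ± 0.38), with no overlap of the groups. After WT cecum replicate 2 was left out, the log2 changes were 13.85 for Pgc and 14.36 for Gif, and without WT cecum replicate 3 that of Gif was 9.46.

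Genes best known from the exocrine pancreas were among the largest changes. Clps, which encodes pancreatic colipase, had 28255, 32296 and 22750.3 CPM in WT stomach, against 3.07, 67.1 and 1.35 CPM in WT cecum (10.19 ± 1.67), and Pla2g1b, a secreted phospholipase, had 12038, 12650.2 and 10754 CPM in WT stomach, against 1.51, 31.3 and 0.357 CPM in WT cecum (10.06 ± 1.59). Once WT cecum replicate 2 was omitted, the values were 13.63 for Clps and 13.68 for Pla2g1b. Both stand among the 8 most abundant genes of WT stomach per kb of exon. Of the 17 pancreatic acinar genes listed, 10 were tested and 8 called higher, but Cpa1 and Amy2a5, defining genes of acinar cells, had no read in the 6 libraries. The highest sum of the list was 309 CPM in WT stomach and 46 CPM in WT cecum. Trypsinogen genes such as Try4 belong to a family of near-identical copies that can share reads. Try4 had 80.6, 98.7 and 33.2 CPM in WT stomach, against 0, 0.0837 and 0 CPM in WT cecum, with 4 reads in all 3 WT cecum libraries together. Rbpjl and Ptf1a, transcription factors known from acinar cells, were present in WT stomach. Rbpjl had 8.97, 8.12 and 5.92 CPM in WT stomach, against 0.0265, 0.0418 and 0.104 CPM in WT cecum (6.89 ± 0.88), or 7.69 without WT cecum replicate 3. Ptf1a had 1.38, 1.36 and 0.346 CPM in WT stomach and no cecum read and was at least 16.5-fold higher, a bound set by 3 reads per library that covers counting error only.

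Some genes best known from the liver were also higher. The vitamin D binding protein gene Gc had 18.9, 16.1 and 17.3 CPM in WT stomach, against no read in WT cecum. Apoa1, the main protein of high-density lipoprotein, had 1111, 1163 and 576 CPM in WT stomach, against 2.91, 6.8 and 0.787 CPM in WT cecum (8.09 ± 1.69, edgeR adjusted p = 0.000692). Without WT cecum replicate 2 the Apoa1 value was 9.03. Alb, the defining gene of hepatocytes, was low at 1.81, 1.14 and 1.58 CPM in WT stomach, against 0, 0.0209 and 0.0594 CPM in WT cecum (5.46 ± 0.74, or 6.76 without WT cecum replicate 3), and Fga and Fgg had no read in the 6 libraries. Of 13 tested genes of the list, 7 were called higher and 0 lower, or 1 lower without WT cecum replicate 3.

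Endocrine genes divided in part by organ. Of 9 gastric endocrine genes tested, 8 were called higher and 1 lower, with a median of 3.91. Without WT stomach replicate 3 the higher count was 6 and the median 2.81. Ghrl, the ghrelin gene, had 1013, 1182 and 966 CPM in WT stomach, against 1.35, 3.66 and 0.371 CPM in WT cecum (9.21 ± 0.84, edgeR adjusted p = 6.97e-08). Sst, which encodes somatostatin, had 219.9, 269.9 and 255 CPM in WT stomach, against 3.52, 2.05 and 8.13 CPM in WT cecum (5.75 ± 0.97), and Hdc, the histamine-forming enzyme, had 56.5, 51 and 34.9 CPM in WT stomach, against 0.768, 1.97 and 0.802 CPM in WT cecum (5.33 ± 0.70). In each of them the groups were separate. With WT cecum replicate 2 left out, the Ghrl value was 10.32, and without replicate 3 the Sst value was 6.48. Monoamine transporters ran opposite ways: Slc18a2 was higher (2.72 ± 0.20) and Slc18a1 lower (-2.07 ± 0.33), at 0.848, 0.681 and 0.619 CPM in WT stomach, against 2.7, 2.72 and 3.57 CPM in WT cecum.

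Among 13 intestinal endocrine genes tested, 5 were called lower and 1 higher, and 7 were not called. Neurotensin, Nts, had 0.158, 0.0568 and 0.273 CPM in WT stomach, against 35.8, 23.6 and 38.1 CPM in WT cecum (-7.62 ± 1.31), and secretin, Sct, had 0.434, 0.303 and 0.164 CPM in WT stomach, against 58.1, 28.6 and 37.9 CPM in WT cecum (-7.11 ± 1.12). The glucagon gene Gcg, also the source of GLP-1, had 0.769, 0.322 and 1.42 CPM in WT stomach, against 10.7, 4.58 and 46.6 CPM in WT cecum (-4.62 ± 1.18). Cholecystokinin, Cck (-4.49 ± 0.85), and peptide YY, Pyy (-4.28 ± 1.24), were the other lower genes. Without WT stomach replicate 3 the log2 changes were -8.22 for Nts, -5.24 for Gcg, -5.68 for Cck and -6.88 for Pyy, and without WT cecum replicate 3 that of Gcg was -3.18. Chga, a granin of many endocrine cells, was the higher gene, with 682, 637 and 435 CPM in WT stomach, against 58.2, 54.6 and 58.6 CPM in WT cecum (3.35 ± 0.69). The higher count was 2 without WT stomach replicate 1 and 2 without replicate 2.

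Transcription factors of the foregut were higher in WT stomach. Their list shares Gata5 and Foxq1 with the surface mucous list and Nkx6-3 with the gastric endocrine list. Of 16 foregut factors tested, 13 were called higher and 0 lower, with a median of 5.26. Without WT stomach replicate 3 the higher count was 10 and the median 3.77. Sox2 had 7.96, 7.97 and 6.57 CPM in WT stomach, against 0.397, 0.146 and 0.134 CPM in WT cecum (5.09 ± 0.82, edgeR adjusted p = 5.41e-05). Barx1, a factor of the stomach mesenchyme, had 15.6, 29 and 33.1 CPM in WT stomach, against 0.0265, 0.105 and 0 CPM in WT cecum (9.23 ± 1.01). Gata4 had 409, 352 and 307 CPM in WT stomach, against 1.06, 2.66 and 0.0594 CPM in WT cecum (8.17 ± 1.48), whereas the related Gata6 was present in both organs, at 107, 99.4 and 83.3 CPM in WT stomach, against 32, 30.9 and 30.5 CPM in WT cecum (1.63 ± 0.18). When WT cecum replicate 1 was left out, the Sox2 value was 5.72. After WT cecum replicate 2 was left out, those of Barx1 and Gata4 were 11.06 and 9.47, and without replicate 3 they were 8.51 and 7.57.

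In the opposite direction, 17 of 19 intestinal factors were called lower and 0 higher, with a median of -2.93. Cdx2 lies on GRCm38 chromosome 5, from 147300805 to 147307270 on the minus strand. The Cdx2 level was 1.52, 0.662 and 0.437 CPM across the WT stomach libraries, against 623, 663 and 408 CPM in WT cecum (-9.34 ± 0.68, edgeR adjusted p = 4.92e-09). Cdx1 had 0.729, 0.208 and 0.2 CPM in WT stomach, against 332, 304 and 204 CPM in WT cecum (-9.53 ± 1.15). The residual Cdx2 level in WT stomach was highest in replicate 1, as was that of Cdx1, and without that library the log2 changes were -10.00 for Cdx2 and -10.40 for Cdx1. The vitamin D receptor gene Vdr had 2.29, 1.83 and 2.4 CPM in WT stomach, against 674, 779 and 465 CPM in WT cecum (-8.20 ± 0.99). Factors shared with other epithelia differed less: Hnf4a had 286, 216 and 252 CPM in WT stomach, against 2163, 2147 and 1219 CPM in WT cecum (-2.87 ± 0.35), and Klf4 (-0.73 ± 0.39) was not called.

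**Figure D3:**
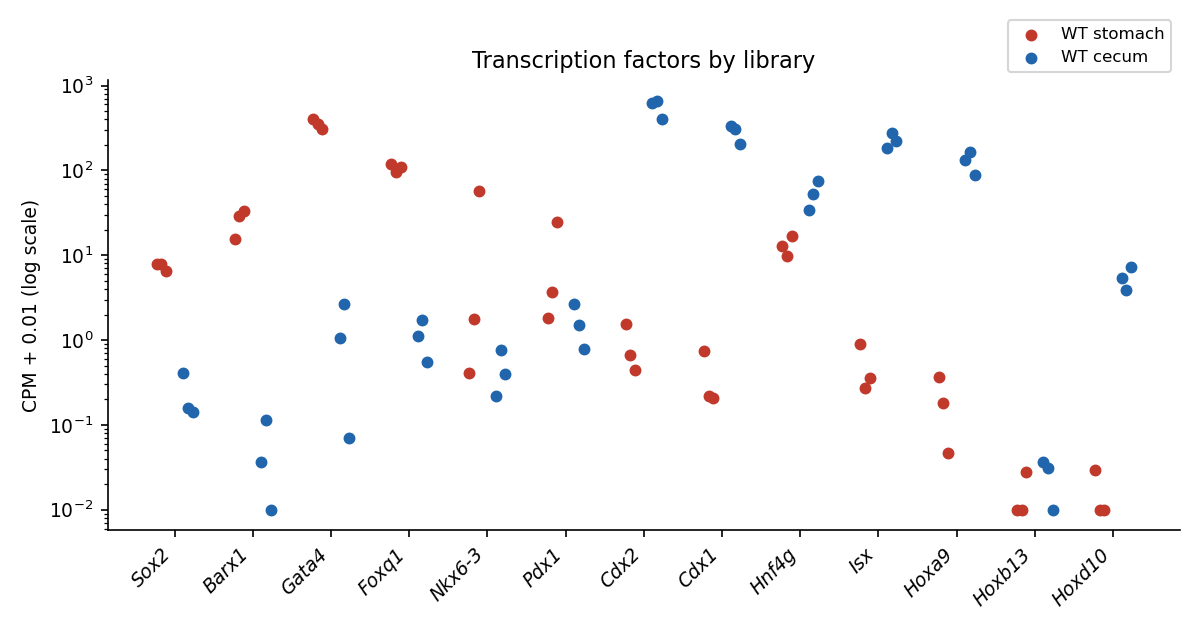
CPM plus 0.01 on a log scale (vertical axis) of 13 transcription factors (horizontal axis) in each WT stomach library (red, left of each pair) and each WT cecum library (blue, right of each pair). Cdx2 lies at 1.52, 0.662 and 0.437 CPM in WT stomach and 623, 663 and 408 CPM in WT cecum, and Nkx6-3 and Pdx1 have 1 high stomach library each.

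Hox genes, which record position along the body axis, were mostly lower in WT stomach, and the medians of the paralogue groups descended in order. In groups 1 to 5, 7 of 12 tested genes were called lower and 1 higher, with a median of -1.69. Groups 6 to 8 had 7 of 8 called lower and a median of -4.11. Groups 9 to 13 had 10 of 11 called lower and a median of -8.61, or -7.67 with genes that had no stomach read set at their bounds. The median of groups 9 to 13 was -9.65 without WT stomach replicate 1. The difference between these medians was not tested.

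Within the HoxA cluster the neighbours Hoxa4 and Hoxa5 differed in direction. Hoxa4 had 1.24, 2.04 and 2.26 CPM in WT stomach, against 0.927, 0.983 and 0.787 CPM in WT cecum (1.04 ± 0.36, edgeR adjusted p = 0.0246), a call lost without WT cecum replicate 1 (log2 1.06, edgeR adjusted p = 0.0576) or 3 (log2 0.95, edgeR adjusted p = 0.0686). It was also lost without WT stomach replicate 2 (log2 0.96, edgeR adjusted p = 0.0703) or 3 (log2 0.87, edgeR adjusted p = 0.0944). Hoxa5 had 2.94, 3.73 and 3.38 CPM in WT stomach, against 25.1, 27.4 and 14.6 CPM in WT cecum (-2.74 ± 0.44). Hoxa7 had 0.237, 0.397 and 0.2 CPM in WT stomach, against 34.4, 34 and 28.2 CPM in WT cecum (-6.85 ± 0.62), and Hoxa9 had 0.355, 0.17 and 0.0364 CPM in WT stomach, against 131, 163 and 88.7 CPM in WT cecum (-9.42 ± 0.86, or -10.25 without WT stomach replicate 1). Hoxa13, which marks the hindgut, had no read in WT stomach and 2.38, 2.36 and 0.787 CPM in WT cecum, so it was at least 32.5-fold lower in WT stomach. Hoxd12 and Hoxd13 were at or near 0 in both organs and were not tested.

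Colonocyte transport genes were called lower in 17 of 20 cases, with a median of -6.84. Car1, a cytosolic carbonic anhydrase, had the highest mean level per kb of exon among protein-coding genes of WT cecum, at 25.3 CPM per kb in WT stomach and 17463 CPM per kb in WT cecum. In WT cecum replicate 2 the membrane-anchored protein gene Lypd8 took more reads than Car1, 2.14 against 1.68%. Car1 had 59.2, 23.5 and 12.1 CPM in WT stomach, against 26794, 23554 and 15034 CPM in WT cecum (-9.43 ± 2.28, edgeR adjusted p = 0.00239). Aqp8, a water channel of surface colonocytes, had 5.89, 2.48 and 0.855 CPM in WT stomach, against 4556, 3329 and 881 CPM in WT cecum (-9.89 ± 2.17), and WT cecum replicate 3 was the lowest of its group in both genes. Without WT stomach replicate 1, the highest of its group, the values were -10.25 for Car1 and -10.77 for Aqp8. The butyrate transporter gene Slc5a8 had 1.91, 0.624 and 1.2 CPM in WT stomach, against 285, 398 and 322 CPM in WT cecum (-8.07 ± 1.67). Slc20a1, a phosphate transporter, had 31.8, 30.4 and 24.3 CPM in WT stomach, against 1105, 1356 and 648 CPM in WT cecum (-5.17 ± 0.30). The sodium channel subunit gene Scnn1g went the other way, at 2.72, 1.78 and 4.28 CPM in WT stomach, against 0.662, 0.167 and 0.253 CPM in WT cecum (3.05 ± 0.45, or 3.77 without WT cecum replicate 1), while Scnn1a (0.38 ± 0.35) and Scnn1b (0.06 ± 0.54) were not called.

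Brush border genes were called lower in 17 of 20 cases, with a median of -4.62. The adhesion molecules that link microvilli were far lower in WT stomach: Cdhr2 had 24.3, 16.5 and 11.5 CPM in WT stomach, against 2910.2, 3298 and 1639 CPM in WT cecum (-7.23 ± 0.80) and Cdhr5 had 12.2, 7.49 and 4.71 CPM in WT stomach, against 2117, 2187 and 1227 CPM in WT cecum (-7.82 ± 1.05). The intestinal cadherin gene Cdh17 had 9.15, 2.38 and 1.02 CPM in WT stomach, against 2097, 2220.1 and 1434 CPM in WT cecum (-8.84 ± 0.88, or -10.14 without WT stomach replicate 1). The actin-bundling villin, Vil1, was present in both organs, with 232, 90.9 and 178 CPM in WT stomach, against 2216, 2195 and 1288 CPM in WT cecum (-3.51 ± 0.51, edgeR adjusted p = 1.7e-05). The aminopeptidase gene Anpep was called higher (2.87 ± 0.95), at 169, 124 and 128 CPM in WT stomach, against 15.6, 13.7 and 28.3 CPM in WT cecum, and that call was lost without WT cecum replicate 1 (log2 2.74, edgeR adjusted p = 0.0675) or 2 (log2 2.68, edgeR adjusted p = 0.0738).

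Some families of neighbouring genes were divided between the organs. Others were not: the gastrokine genes Gkn1, Gkn2 and Gkn3, within 43.3 kb on chromosome 6, were all called higher in WT stomach. The trefoil factors, small proteins that protect mucosa, lie within 40.0 kb on chromosome 17. Tff1 had 577, 625 and 538 CPM in WT stomach, against 3.07, 4.98 and 0.0297 CPM in WT cecum (7.77 ± 1.36), and Tff2 had 1050.4, 1259.7 and 1977 CPM in WT stomach, against 56.4, 46.2 and 0.357 CPM in WT cecum (5.38 ± 1.26). Tff3, which starts 15.7 kb from the start coordinate of Tff2, had 4.36, 1.34 and 1.95 CPM in WT stomach, against 558, 367 and 513 CPM in WT cecum (-7.56 ± 1.00). All 3 separated the groups, as did 51.4% of all tested genes, and Tff2 and Tff3 did so in opposite directions. The Tff1 value was 8.62 without WT cecum replicate 2 and 7.17 without replicate 3, and that of Tff3 was -8.18 without WT stomach replicate 1.

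The gel-forming mucins lie within 239.6 kb on chromosome 7 in the order Muc6, Muc2, Muc5ac and Muc5b. Muc6, the mucin of gastric glands, had 1342, 1292 and 1095 CPM in WT stomach, against 6.28, 8.05 and 2.08 CPM in WT cecum (7.83 ± 1.12). Muc2, the main mucin of intestinal goblet cells, had 9.05, 2.8 and 1.88 CPM in WT stomach, against 894, 468 and 1446 CPM in WT cecum (-7.68 ± 1.08). Muc5ac, the mucin of the gastric surface, had 8671, 11309.8 and 16065 CPM in WT stomach, against 5.35, 74.4 and 0.134 CPM in WT cecum (8.82 ± 1.56). Muc5b was low in both organs and was not called, at 4.59, 3.12 and 1.13 CPM in WT stomach, against 2.46, 1.42 and 0.0446 CPM in WT cecum (1.21 ± 1.64). Muc2 sits between a pair of stomach-high genes, and its highest stomach value of 9.05 CPM was below its lowest cecum value of 468 CPM. The membrane mucin genes Muc3 (-9.32 ± 1.08) and Muc13 (-8.20 ± 0.87) were lower and Muc1 was higher (7.85 ± 0.91). Once WT cecum replicate 2 was omitted, the Muc5ac value was 12.13 and that of Muc1 8.51. Without WT stomach replicate 1 the values were -8.64 for Muc2, -10.51 for Muc3 and -9.51 for Muc13.

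**Figure D4:**
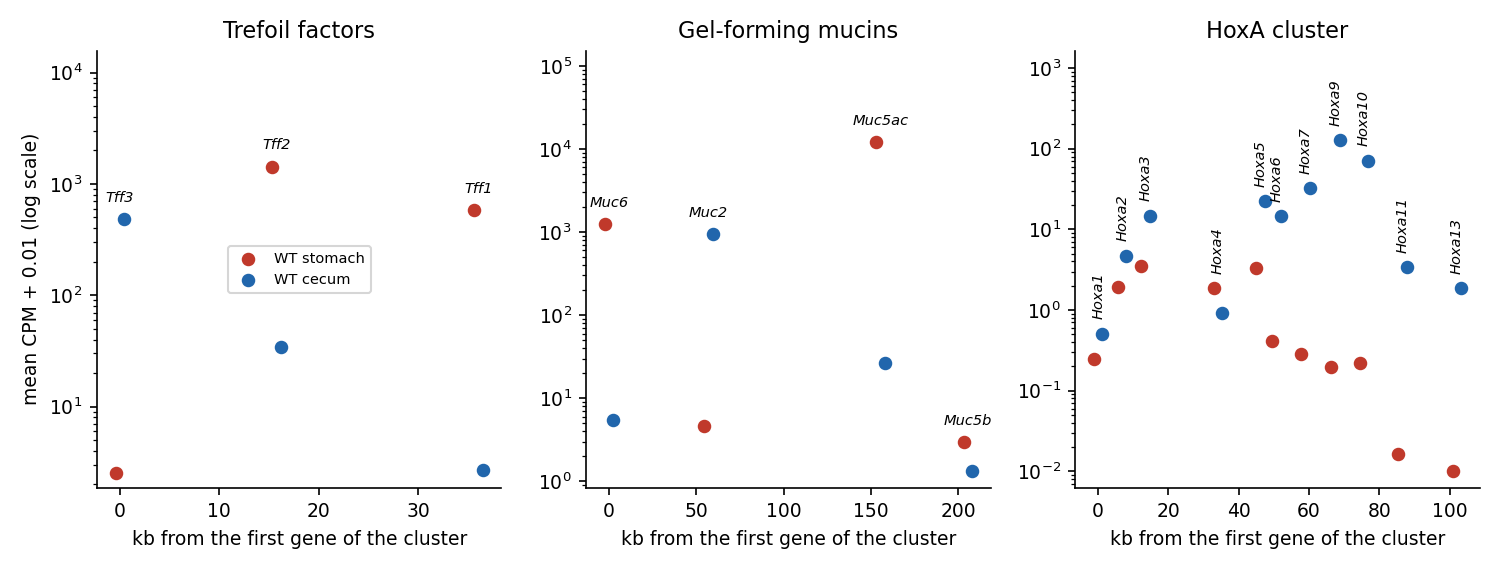
Mean CPM plus 0.01 on a log scale (vertical axes) against the distance in kb from the first gene of the cluster (horizontal axes) for the trefoil factor, gel-forming mucin and HoxA clusters, with WT stomach in red and WT cecum in blue, drawn slightly to the left and right of each gene. Tff3 and Muc2 are high in WT cecum beside neighbours that are high in WT stomach, and in the HoxA cluster WT stomach lies below WT cecum at every gene drawn except Hoxa4.

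The promoters of Muc6 and Muc2 are shown because the genes are neighbours with opposite changes, and those of Ms4a10 and Hao2 because they are the genes among the 12 largest cecum-high changes with a listed promoter that held the Cdx motif. Each window covers 250 bases before and 50 after the start of the gene, from RefSeq on GRCm38.p6, 5′ to 3′ on the gene's strand. Capitals mark the Cdx motif TTTATG, also searched for on the other strand as CATAAA. They also mark the GATA motif AGATAA, searched for on the other strand as TTATCT. The 2 motifs do not overlap in these windows.
Muc6 (chr7:141655344-141655643, minus strand): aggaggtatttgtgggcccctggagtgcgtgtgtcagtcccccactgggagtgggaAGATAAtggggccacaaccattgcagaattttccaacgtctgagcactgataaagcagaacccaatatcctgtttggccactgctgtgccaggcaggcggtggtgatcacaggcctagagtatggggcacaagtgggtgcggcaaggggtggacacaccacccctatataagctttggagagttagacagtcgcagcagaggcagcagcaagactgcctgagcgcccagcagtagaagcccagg
Muc2 (chr7:141690090-141690389, plus strand): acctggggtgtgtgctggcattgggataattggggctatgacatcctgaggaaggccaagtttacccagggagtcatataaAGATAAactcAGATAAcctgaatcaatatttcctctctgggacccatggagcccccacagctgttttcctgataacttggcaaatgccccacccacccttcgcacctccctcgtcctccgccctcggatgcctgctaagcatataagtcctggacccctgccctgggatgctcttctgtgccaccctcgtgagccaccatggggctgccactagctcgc
Ms4a10 (chr19:10974651-10974950, minus strand): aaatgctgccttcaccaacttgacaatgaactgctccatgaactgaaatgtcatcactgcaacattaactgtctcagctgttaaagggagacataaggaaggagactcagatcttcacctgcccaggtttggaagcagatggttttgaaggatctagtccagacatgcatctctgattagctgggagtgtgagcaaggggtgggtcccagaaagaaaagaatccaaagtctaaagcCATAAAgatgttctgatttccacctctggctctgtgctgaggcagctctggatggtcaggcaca
Hao2 (chr3:98893181-98893480, minus strand): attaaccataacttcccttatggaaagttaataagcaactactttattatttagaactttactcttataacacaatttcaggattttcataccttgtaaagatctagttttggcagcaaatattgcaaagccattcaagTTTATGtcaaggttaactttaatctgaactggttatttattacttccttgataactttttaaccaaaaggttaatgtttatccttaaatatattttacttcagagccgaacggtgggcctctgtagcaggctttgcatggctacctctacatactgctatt

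Ms4a10, a membrane-spanning 4-domain gene, had 0.0591, 0 and 0 CPM in WT stomach, against 12.2, 53 and 21.8 CPM in WT cecum, where WT cecum over WT stomach, the inverse of the other folds, was 1543 on 3 stomach reads (95% counting interval 528 to 7487). Its Cdx motif begins 14 bases before the start of the gene. Hao2, a peroxisomal hydroxyacid oxidase gene, had 1.12, 0.492 and 0.51 CPM in WT stomach, against 538, 785 and 639 CPM in WT cecum (-9.85 ± 1.91), and its motif begins 111 bases before the start. The window of Mug1, among the 12 largest stomach-high changes, also held the Cdx motif. Ugt2b5, Aqp8, Abca12, Slc13a2, Prss30, Hoxa9 and Slc26a3, also among the 12 largest cecum-high changes, had listed windows without it. Over 13653 tested genes with a promoter window, 9.0% held the Cdx motif on either strand. It was in 10.5% of 947 windowed genes called higher with a log2 change of at least 2 (95% Wilson interval 8.66 to 12.6%), and in 12.4% of 934 called lower to the same extent (10.5 to 14.7%). The GATA motif was in 8.8% of all, 11.5% of the higher (9.63 to 13.7%) and 12% of the lower genes (10.1 to 14.2%). The intervals of the higher and the lower genes overlap for both motifs. The GATA search was added after the calls were seen.

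Goblet cell genes split within the list. Of 14 tested, 7 were called higher and 6 lower, with a median of 0.21. The lower members were Muc2, Fcgbp, Zg16, Tff3, Spink4 and Gfi1. The median was -0.34 without WT stomach replicate 3 and -0.0050 without WT cecum replicate 2, so its direction rests on those libraries. Zg16, a lectin-like protein that binds bacteria, had 8.12, 2.71 and 75.4 CPM in WT stomach, against 1129.5, 690.2 and 1138 CPM in WT cecum (-5.10 ± 1.32), with WT stomach replicate 3 the highest of its group and a log2 change of -7.51 without it. Fcgbp, a mucus protein, had 21.8, 28.7 and 841 CPM in WT stomach, against 1681, 1260.5 and 3699 CPM in WT cecum (-2.90 ± 0.96, edgeR adjusted p = 0.0194), and its log2 change without WT stomach replicate 3 was -6.45. The Fcgbp call was lost without WT cecum replicate 3 (log2 -2.31, edgeR adjusted p = 0.0655) and without WT stomach replicate 1 (log2 -2.35, edgeR adjusted p = 0.0501) or 2 (log2 -2.36, edgeR adjusted p = 0.0601). The higher members included Sytl2, a protein of secretory granules, at 629, 467 and 624 CPM in WT stomach, against 15.6, 18.6 and 54.6 CPM in WT cecum (4.27 ± 0.41), and the mucin-folding enzyme Agr2, at 624, 621 and 1015 CPM in WT stomach, against 89.4, 66.1 and 278 CPM in WT cecum (2.38 ± 0.40). Atoh1, the factor that specifies intestinal secretory cells, had 0.0789, 0.0568 and 0 CPM in WT stomach, against 13.2, 13 and 30.4 CPM in WT cecum (-8.66 ± 1.22). Without WT cecum replicate 3 the values were 5.07 for Sytl2 and 3.28 for Agr2. For Atoh1 they were -9.29 without WT stomach replicate 1 and -8.07 without replicate 3.

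Enzymes that build mucin sugars moved in both directions. Of 24 tested, 8 were called higher and 11 lower. A4gnt, which caps gastric gland mucin, had 170.2, 182 and 163 CPM in WT stomach, against 4.37, 5.84 and 29.8 CPM in WT cecum (3.68 ± 0.73), and without WT cecum replicate 3, the highest of its group, the log2 change was 5.07. B4galnt2, which adds N-acetylgalactosamine in the large intestine, had 18.3, 17.9 and 11 CPM in WT stomach, against 824, 953 and 749 CPM in WT cecum (-5.74 ± 1.17). Its relative B4galnt3 was higher, at 165, 130.4 and 64.4 CPM in WT stomach, against 48.8, 44.6 and 27 CPM in WT cecum (1.58 ± 0.34).

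Of 10 Slc26 anion exchangers tested, 4 were called higher and 3 lower. Slc26a9, a chloride channel of gastric epithelium, had 594, 533 and 292 CPM in WT stomach, against 0.636, 1.72 and 0.0743 CPM in WT cecum (9.22 ± 0.79). Slc26a7, of the parietal cell, had 51.3, 53.7 and 27.8 CPM in WT stomach, against 0, 0.0628 and 0.0149 CPM in WT cecum, with 4 reads in WT cecum in total. With WT cecum replicate 2 left out, the Slc26a9 value was 10.55, and without replicate 3 it was 8.63. Slc26a3, the colonic chloride-bicarbonate exchanger, had 6.07, 2.76 and 2.24 CPM in WT stomach, against 2245, 3164 and 1975 CPM in WT cecum (-9.38 ± 1.53), and the sulfate transporter Slc26a2 had 109, 113 and 228 CPM in WT stomach, against 2092, 2464 and 1586 CPM in WT cecum (-3.77 ± 0.31). Slc26a6 (3.37 ± 0.80) and Slc26a10 (2.51 ± 0.35) were also higher and Slc26a1 (-6.40 ± 0.67) also lower. Slc26a11 was not called, at 7.39, 8.61 and 8.48 CPM in WT stomach, against 8.29, 8.1 and 8.17 CPM in WT cecum, and Slc26a4 (-1.29 ± 1.25) and Slc26a8 (0.14 ± 0.34) were not called.

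Tight junction claudins showed 1 higher and 6 lower genes among 12 tested. Cldn18, the gastric claudin, had 1807, 1526 and 1488 CPM in WT stomach, against 5.22, 12.7 and 0.0149 CPM in WT cecum (8.07 ± 1.73), with values of 9.30 without WT cecum replicate 2 and 7.48 without replicate 3. Cldn7 had 7.63, 3.29 and 6.17 CPM in WT stomach, against 1215, 1264 and 750.0 CPM in WT cecum (-7.56 ± 0.56), and Cldn3 had 2.27, 0.908 and 0.837 CPM in WT stomach, against 638, 626 and 408 CPM in WT cecum (-8.70 ± 0.89, or -9.31 without WT stomach replicate 1). When WT cecum replicate 3 was left out, the higher count was 2. Cldn12 was not called, at 49.1, 49.4 and 51.2 CPM in WT stomach, against 53.9, 63.1 and 51.1 CPM in WT cecum (-0.17 ± 0.13). Among carbonic anhydrases, Car12 was lower (-6.63 ± 0.31) and the mitochondrial Car5b higher (4.48 ± 0.25), at 41.8, 54.2 and 34.1 CPM in WT stomach, against 2.12, 1.65 and 2.06 CPM in WT cecum. Car2, of the same chromosomal cluster as Car1, was not called, at 3662, 3044 and 2384 CPM in WT stomach, against 1347, 1545 and 1032 CPM in WT cecum (1.21 ± 0.64).

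In the antimicrobial list 9 of 18 genes were called lower and 0 higher. Pigr, which carries IgA across epithelium, had 101, 17.8 and 35.2 CPM in WT stomach, against 3566, 3289.7 and 3888 CPM in WT cecum (-6.12 ± 0.58, edgeR adjusted p = 1.12e-07). Saa1, an acute-phase protein also made by colonic epithelium, had 1.5, 0.776 and 0.2 CPM in WT stomach, against 494, 556 and 267 CPM in WT cecum (-9.06 ± 1.98). Without WT stomach replicate 1 the values were -7.07 for Pigr and -9.81 for Saa1, and without WT stomach replicate 3 the higher count was 1. Duox2, a hydrogen peroxide producer, was not called, at 761, 626 and 194 CPM in WT stomach, against 496, 249.9 and 279 CPM in WT cecum (0.63 ± 0.48). Of 18 pattern receptors and adaptors, 10 were lower and 3 higher. The inflammasome sensor gene Nlrp6 had 1.4, 0.795 and 0.728 CPM in WT stomach, against 456, 479.5 and 297 CPM in WT cecum (-8.72 ± 0.98), and Naip1, a sensor of bacterial secretion systems, had 3.13, 1.44 and 1.51 CPM in WT stomach, against 612, 706 and 419.6 CPM in WT cecum (-8.16 ± 0.56). The lipopolysaccharide receptor gene Tlr4 was higher, at 89.3, 76 and 66.9 CPM in WT stomach, against 5.51, 2.95 and 8.62 CPM in WT cecum (3.76 ± 0.39), and Nod1 (1.08 ± 0.29) and Tlr6 (1.87 ± 0.41) were the other higher genes.

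Butyrophilin-like and gasdermin C genes were called lower in all 8 cases, with a median of -5.69, or -6.61 without WT stomach replicate 1. Btnl1, a butyrophilin-like gene known to support intraepithelial T cells in the intestine, had 0.946, 0.359 and 0.346 CPM in WT stomach, against 230.1, 313 and 179.7 CPM in WT cecum (-8.78 ± 1.42, or -9.41 without WT stomach replicate 1). Gsdmc4 had 22.1, 16.8 and 11.7 CPM in WT stomach, against 2848, 1986 and 1527 CPM in WT cecum (-6.97 ± 1.66), and the near-identical gasdermin C copies can share reads. T cell genes were lower as well, 13 of 15 tested, with summed levels of 9.64, 8.06 and 9.12 CPM in WT stomach, against 24, 27.8 and 56.8 CPM in WT cecum. The kinase gene Lck had 1.28, 0.757 and 1.04 CPM in WT stomach, against 6.89, 6.71 and 7.52 CPM in WT cecum (-2.78 ± 0.49). After WT cecum replicate 3 was left out, which had the highest sum, 8 T cell genes were lower, and without WT stomach replicate 2 the count was 8. Mast cell genes ran the other way, with 9 of 11 higher, among them the tryptase gene Tpsb2, at 10.4, 4.58 and 4.4 CPM in WT stomach, against 0.265, 0.251 and 0.312 CPM in WT cecum (4.53 ± 0.50). The protease genes Mcpt1 and Mcpt2 were the members not called, and Kit, a higher member, is also listed for interstitial cells of Cajal.

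**Figure D5:**
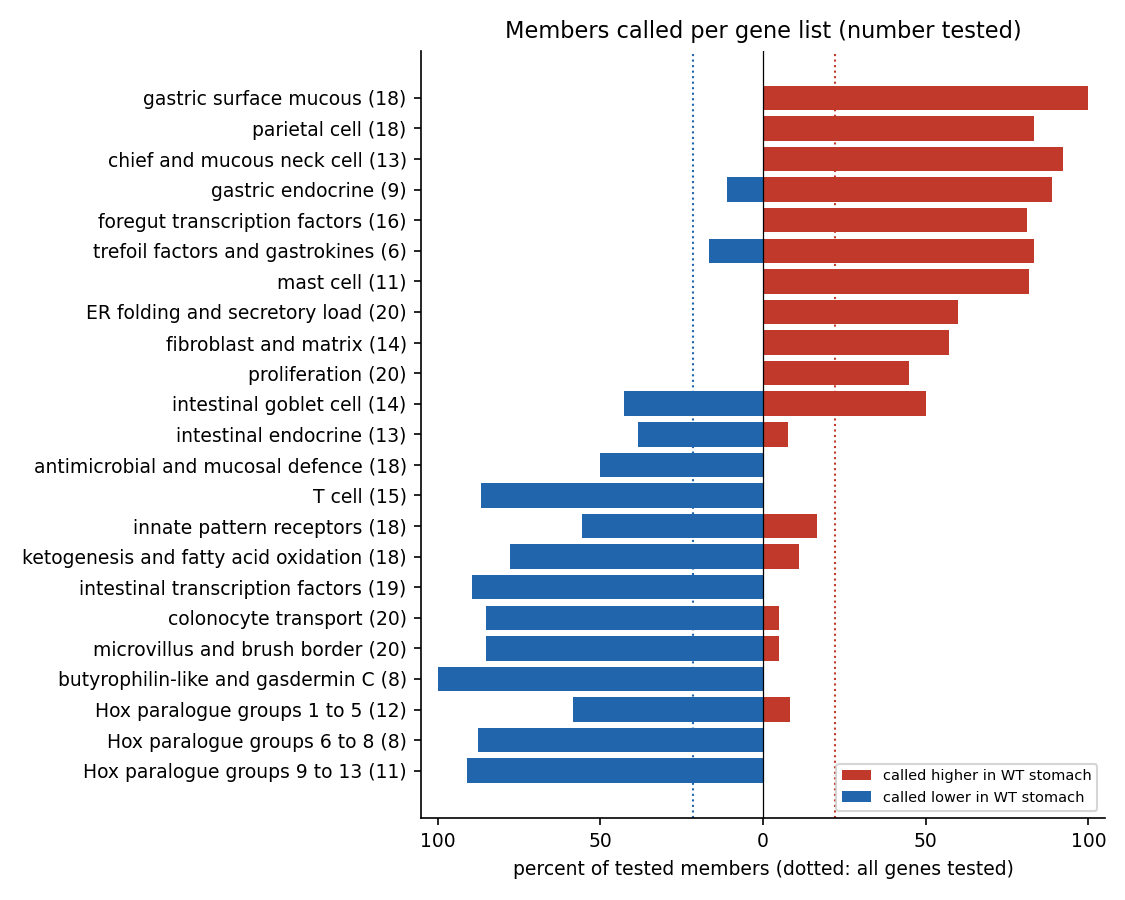
Percent of tested members called higher in WT stomach (red, to the right) and called lower (blue, to the left) for 23 gene lists, with the number tested in parentheses. Dotted lines mark the shares over all genes tested, 22.1% higher and 21.6% lower. All 18 gastric surface mucous genes were called higher and all 8 butyrophilin-like and gasdermin C genes lower, and the goblet cell list has bars on both sides. The lists were chosen with earlier results of these data known.

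Among metabolic genes, medians were closer to 0. Of 18 ketogenesis and fatty acid oxidation genes, 14 were called lower and 2 higher, with a median of -0.73. Acat1 was higher, at 368, 375 and 258 CPM in WT stomach, against 151, 148 and 153 CPM in WT cecum (1.15 ± 0.16), as was the uncoupling protein gene Ucp2 (0.97 ± 0.17). Of 81 nuclear genes of oxidative phosphorylation, 3 were higher and 10 lower, with a median of -0.11. Once WT cecum replicate 3 was omitted, the lower count was 16. It was 4 without WT cecum replicate 1, 3 without replicate 2 and 4 without WT stomach replicate 3. The median turned to 0.0085 without WT cecum replicate 1 and 0.0128 without WT stomach replicate 3. The 13 mitochondrially encoded protein genes are listed at 0 in every library, and no value is given for them.

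Genes of protein folding in the secretory pathway were called higher in 12 of 20 cases and lower in 0 (1 without WT cecum replicate 3), with a median of 0.74. The chaperone gene Hspa5 had 1603, 976 and 831 CPM in WT stomach, against 443, 377 and 369 CPM in WT cecum (1.52 ± 0.29), and Xbp1, the transcription factor of secretory cells, had 474, 436 and 372 CPM in WT stomach, against 175, 176 and 163 CPM in WT cecum (1.32 ± 0.18). Iron and amino acid uptake divided by member, with 6 higher and 5 lower of 16. Heph, a ferroxidase that passes iron to blood, had 2.35, 1.23 and 2.31 CPM in WT stomach, against 436, 549 and 323 CPM in WT cecum (-7.79 ± 0.52). The ferric reductase gene Cybrd1 had 104, 99.1 and 652 CPM in WT stomach, against 4.9, 5.52 and 4.25 CPM in WT cecum (5.87 ± 1.05), with a log2 change of 4.38 without WT stomach replicate 3.

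Signalling ligands differed between related genes. Shh had 37.6, 27.5 and 32.2 CPM in WT stomach, against 0.371, 0.648 and 0.535 CPM in WT cecum (5.95 ± 0.70, edgeR adjusted p = 1.54e-06), and Ihh had 63.3, 55.4 and 44.2 CPM in WT stomach, against 343, 348 and 169 CPM in WT cecum (-2.40 ± 0.29). Both hedgehog ligands are made by gut epithelium and act on the mesenchyme. Of 15 pathway genes, 6 were higher and 1 lower, and the target and effector Gli1 had 9.96, 13.2 and 16.5 CPM in WT stomach, against 5.48, 4.35 and 7.31 CPM in WT cecum (1.21 ± 0.33), while the receptor and target Ptch1 was not called (0.44 ± 0.35). The lower count was 2 without WT cecum replicate 1 or 2 or WT stomach replicate 3. In the Wnt and stem cell list 11 of 24 genes were higher and 3 lower. The Wnt target Axin2 had 3.23, 3.9 and 6.19 CPM in WT stomach, against 11.4, 9.33 and 17.6 CPM in WT cecum (-1.52 ± 0.41), the receptor Ephb2 had 7.85, 7.47 and 15.3 CPM in WT stomach, against 34.6, 33 and 63.2 CPM in WT cecum (-2.09 ± 0.26), and Ascl2 (-2.26 ± 0.54, or -3.42 without WT stomach replicate 3) was the other lower gene. The ligand Wnt11 was higher (3.67 ± 0.52), and the stem cell receptor gene Lgr5 was not called, at 3, 3.18 and 10.5 CPM in WT stomach, against 2.81, 1.97 and 9.27 CPM in WT cecum (0.24 ± 0.65).

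Cell types of the gut wall varied between libraries of 1 organ. Smooth muscle genes summed to 2893, 5858 and 8458 CPM in WT stomach, against 2776, 1697 and 5213 CPM in WT cecum, and 1 of 14 was called higher. Without WT cecum replicate 3 the count was 7, and without WT stomach replicate 1 it was 3. Fibroblast and matrix genes were higher in 8 of 14 cases, 4 without WT cecum replicate 1, 4 without replicate 2 and 4 without WT stomach replicate 3. Proliferation genes were higher in 9 of 20 cases with a median of 0.49, and in 3 without WT cecum replicate 1 and 2 without replicate 2. Jchain, which joins IgA in plasma cells, was lower, at 42.1, 19 and 12.4 CPM in WT stomach, against 254, 207 and 605 CPM in WT cecum (-3.86 ± 0.64), with values of -3.23 without WT cecum replicate 3 and -4.50 without WT stomach replicate 1.

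Squamous genes of the forestomach were low. The 26 listed genes included the basal keratin gene Krt5, at 7.29, 0.359 and 0.146 CPM in WT stomach, against 1.22, 0.377 and 0.0743 CPM in WT cecum, and the suprabasal keratin gene Krt13, at 10.2, 0.7 and 1.78 CPM in WT stomach, against 1.09, 0.377 and 0.0149 CPM in WT cecum (3.20 ± 0.98). WT stomach replicate 1 held the most of both, and the Krt13 call was lost without it (log2 1.44, edgeR adjusted p = 0.219). The Krt13 call was also lost without WT cecum replicate 2 (log2 3.07, edgeR adjusted p = 0.0508), and the log2 change was 4.54 without WT cecum replicate 1 and 2.55 without replicate 3. Of 24 tested, 6 were called higher and 1 lower, and the higher count was 2 without WT stomach replicate 1 and 2 without WT cecum replicate 2. Sprr1a, an envelope protein gene, was the lower one, at 55.5, 48.2 and 119 CPM in WT stomach, against 617, 80.3 and 49.9 CPM in WT cecum (-1.74 ± 0.68), and without WT cecum replicate 1 its log2 change was 0.19 (edgeR adjusted p = 0.807). That call was lost as well without WT stomach replicate 1 (log2 -1.57, edgeR adjusted p = 0.129) or 2 (log2 -1.51, edgeR adjusted p = 0.147). Small proline-rich genes are close copies that can share reads.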

How the data were processed

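RNA-seq was analysed from 24 mouse libraries in 8 groups of 3, made from Trizol-extracted total RNA with a TruSeq mRNA kit, version 2, per the labels' protocols. The deposited files hold raw read counts per Ensembl gene. The authors made them with CASAVA, TopHat2 2.0.11 and HTSeq 0.5.3p3 on GRCm38, per the submitters' processing notes. The sources used here name no counting option, strand setting or annotation release. Overlapping and antisense genes therefore cannot be told apart, and near-identical copies can share reads. The 5 closing entries per file, which name no gene, were kept out of library sizes. In the 6 wild-type libraries they held reads in no gene (7.29 to 10.3%), in several genes (2.36 to 3.44%) or aligned more than once (17.3 to 21.0%). Of 39179 listed genes, 37693 matched a symbol in a GENCODE annotation of GRCm38.

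edgeR 4.0.16 (R 4.3.3) was run with TMM normalisation, filterByExpr and quasi-likelihood F tests on the 24 libraries in 8 groups without a block, and tested 20502 genes with Benjamini-Hochberg adjustment. The SE is the absolute log2 change over the square root of F. The pipeline was tested on simulated counts. Libraries of a group differed by more than counting noise (chi-square per degree of freedom of 75.2 to 290.4 on genes with at least 20 reads in a pair), and all were kept. A fold against a group without reads is a bound set by 3 reads per library. Genes were named by a rule: Cdx2, Cdx1, Sox2, Shh, Ihh and Barx1, the 12 largest called changes each way above 10 CPM with separate groups, the 8 most abundant genes per kb in each organ, up to 6 members per list with the smallest adjusted p and any called against the list's direction, and the trefoil, gastrokine, gel-forming mucin and Slc26 families. Others were chosen for their known role, after their values were seen. The members and lists were chosen with earlier results of these data known. Alternatives were other normalisations, filters, DESeq2 1.42.0, limma-voom (limma 3.58.1), the 6 libraries alone, a replicate block, a log2 threshold and leaving out each library. Intervals of shares are Wilson 95% intervals, and the interval of a ratio of reads is an exact 95% interval; both cover counting error only.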

Additional observations from a re-analysis of the deposited data

How the results depend on the processing

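Against a log2 threshold of 1 (edgeR's glmTreat), 3209 genes were called, 1517 higher and 1692 lower, in place of 8951, 4524 and 4427; the stricter null gives fewer calls by construction. Leaving out each library gave 7214 to 9876 calls, 3526 to 5200 higher and 3688 to 4676 lower. All other alternatives gave total, higher and lower counts within 1.5 times of those values. The upper-quartile factors gave 4943 higher and 4018 lower, and moved the median of all genes by 0.08. The labels number replicates 1 to 3 in both organs, without tying a number to an animal, and the numbers were not taken as pairs. Same-numbered libraries deviated together with correlations of 0.213, 0.0066 and 0.356. WT stomach replicate 1 correlated best with WT cecum replicate 2 (0.332). These correlations cannot decide whether numbers mark pairs, because deviations from the mean of 3 libraries depend on each other. On the 6 libraries alone, the replicate block gave 7974 calls, against 7373 without it.

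Of 388 genes named by the rule, 332 were called. Over 5778 values under the alternatives other than the log2 threshold, 5583 kept direction and call, 140 lost the call, 53 gained it and 2 reversed. The log2 threshold is left out of this tally, and over all genes it kept 35.9% of the calls. The reversed values were those of Gbp3 without WT stomach replicate 1 (log2 -0.37; up to 2.43 without another library) and Sprr1a without WT cecum replicate 1 (log2 0.19; down to -2.26); the cause was not tested. Of 1008 counts of list members, 944 stayed within 1.5 times. At a log2 threshold of 4, the Cdx motif share was 12.1% of windowed genes called higher (9.03 to 16.1%) and 16.4% of those called lower (12.8 to 20.7%). At the threshold of 2, the shorter TTTAT was in 37.1% of the higher and 41.4% of the lower genes, against 32% of all. Depth limits low genes: 3 reads per library correspond to 0.0568 CPM in WT stomach and 0.0623 CPM in WT cecum.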

Other observations

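A few genes were wholly without reads in 1 organ. Genes with at least 1 CPM in every WT stomach library and no read in WT cecum numbered 11, of which 7 code for protein. They include Mat1a, the methionine-activating enzyme best known from liver, at 3.33, 3.67 and 3.38 CPM in WT stomach, and Serpina7, which encodes a thyroxine carrier, at 1.52, 1.31 and 1.17 CPM. The reverse held for 5 genes, of which 3 code for protein. Hand1, a transcription factor of mesoderm, had 4.53, 2.38 and 3.77 CPM in WT cecum and no read in WT stomach. A level of at least 1 CPM in all 6 libraries was found for 12834 genes.

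Several transcripts set single libraries apart in ways the labels do not describe. Slfn4, a myeloid gene induced by interferon, had 1051, 2.04 and 1.44 CPM in WT stomach, against 184, 145 and 50.6 CPM in WT cecum. Lars2, Rpph1 and Rn7sk were high in WT stomach replicate 2 and WT cecum replicate 3, and Lars2 had 625, 5550.5 and 1013 CPM in WT stomach, against 1189, 742 and 4782 CPM in WT cecum. Genes at least 4-fold above both other libraries of their group, on CPM plus 1, numbered 87 in WT stomach replicate 1, 10 in replicate 2 and 33 in replicate 3. In WT cecum they numbered 12, 8 and 71. The pseudogenes Gm13340 and Gm13341 are annotated as unprocessed pseudogenes and took 1.60 to 1.85% and 0.595 to 0.804% of gene reads in WT stomach, against 3.26 to 3.64% and 0.816 to 0.888% in WT cecum. The 13 mitochondrially encoded protein genes are listed at 0 in every library, and which transcripts gave the pseudogene reads was not tested. Slfn4, Lars2, Rpph1, Rn7sk and these pseudogenes were picked after their values were seen.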
